A study of Homo sapiens with 54 samples.

Results

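The 9 genes described here belong to MHC class I antigen presentation and were followed in A549 human lung cancer cells: HLA-B, HLA-C, HLA-E, B2M, TAP1, TAP2, TAPBP, PSMB8 and PSMB9. They were taken by symbol from the deposited table, which holds 58870 gene rows, and all 9 members were found and were among the 16836 genes with enough counts to be tested. A549 is an established line of lung adenocarcinoma cells. The cells carried an insertless vector (labelled E_V, empty vector) or a USP18 expression vector (labelled USP18_O_E) and were exposed for 48 h to vehicle (DMSO) or to a compound given by the code CP2 (2 or 5 µM), CP14 (1, 2.5 or 5 µM) or CP18 (1, 2.5 or 5 µM). With 3 libraries in each of 18 groups there were 54 libraries in all. The series names β-lapachone as the agent under study, but the sources used here do not state which code stands for it. The sources used here do not say whether each vector is represented by more than 1 engineered cell population. A difference between USP18 and empty-vector cells is therefore read as a difference between the cells sequenced. The promoter that drives USP18 and whether the cells were cloned are not given in those sources. Nor do the labels say whether replicates were separate cultures, so p-values measure the spread between these libraries.

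MHC class I molecules display short peptides from proteins made inside the cell, so that CD8+ T cells and natural killer cells can inspect them. Peptides are cut by the proteasome, in which the inducible subunits PSMB8 and PSMB9 can take the place of constitutive catalytic subunits. The TAP1-TAP2 transporter carries them into the endoplasmic reticulum, where tapasin (TAPBP) helps load them onto a heavy chain (HLA-B, HLA-C or HLA-E) paired with β2-microglobulin (B2M). Interferons raise most of these genes in many cell types, and USP18, the protease that removes ISG15 from proteins, also restrains signalling from the type I interferon receptor.

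All members except B2M lie on chromosome 6 (GRCh38, GENCODE v44 annotation). TAP2, PSMB8, TAP1 and PSMB9 together span 38019 bases at chr6:32821833-32859851. HLA-B spans chr6:31353872-31367067, HLA-C chr6:31268749-31272130, HLA-E chr6:30489509-30494194 and TAPBP chr6:33299694-33314284. B2M spans chr15:44711358-44718851. TAP1 (minus strand) and PSMB9 (plus strand) are divergent neighbours whose RefSeq starts are 488 bases apart, and their annotated extents overlap each other and the antisense RNA PSMB8-AS1. The extent of PSMB9 also overlaps that of PSMB8, which TAP1 does not reach. The kit keeps strand, but the strand setting of the counting is not given in the sources used here.

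Promoter windows running from 250 bases before to 50 bases after the gene start were available for 8 of the 9 members in the RefSeq table (GRCh38.p14), HLA-E being the exception. Motifs of 4 kinds were searched on both strands: an interferon-stimulated response element (ISRE, GAAA, any 2 bases and GAAA), a gamma-activated sequence (GAS, TTCNNNGAA), an NF-kappaB site (GGGNNTTCC) and a cyclic AMP response element (CRE, TGACGTCA). Among 35116 promoter windows of the same length, 3.57% held the ISRE letters, 7.66% the GAS letters, 6.58% the NF-kappaB letters and 1.85% the CRE letters. The 5 windows below are shown because the genes behind them went different ways in the data. They are read 5′ to 3′ on the strand of the gene, with the matched motif letters in capitals.
TAP1, chr6:32853655-32853954, minus strand: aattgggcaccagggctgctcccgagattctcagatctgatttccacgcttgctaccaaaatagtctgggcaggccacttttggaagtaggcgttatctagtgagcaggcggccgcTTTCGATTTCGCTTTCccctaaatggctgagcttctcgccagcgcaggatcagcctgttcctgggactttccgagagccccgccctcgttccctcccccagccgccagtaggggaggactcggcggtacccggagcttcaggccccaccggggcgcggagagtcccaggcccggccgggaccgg
PSMB9, chr6:32853942-32854241, plus strand: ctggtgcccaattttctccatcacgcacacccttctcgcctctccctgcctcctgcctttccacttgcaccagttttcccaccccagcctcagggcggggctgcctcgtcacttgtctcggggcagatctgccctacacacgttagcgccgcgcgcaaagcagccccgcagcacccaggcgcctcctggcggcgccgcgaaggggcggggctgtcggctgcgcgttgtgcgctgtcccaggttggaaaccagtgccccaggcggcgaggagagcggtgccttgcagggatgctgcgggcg
HLA-B, chr6:31357130-31357429, minus strand: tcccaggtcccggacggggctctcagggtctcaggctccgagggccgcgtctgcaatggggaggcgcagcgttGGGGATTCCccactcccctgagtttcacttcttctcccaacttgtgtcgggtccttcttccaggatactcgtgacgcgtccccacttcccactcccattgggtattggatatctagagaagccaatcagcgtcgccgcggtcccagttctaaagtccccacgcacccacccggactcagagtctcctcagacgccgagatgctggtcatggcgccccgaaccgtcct
B2M, chr15:44711267-44711566, plus strand: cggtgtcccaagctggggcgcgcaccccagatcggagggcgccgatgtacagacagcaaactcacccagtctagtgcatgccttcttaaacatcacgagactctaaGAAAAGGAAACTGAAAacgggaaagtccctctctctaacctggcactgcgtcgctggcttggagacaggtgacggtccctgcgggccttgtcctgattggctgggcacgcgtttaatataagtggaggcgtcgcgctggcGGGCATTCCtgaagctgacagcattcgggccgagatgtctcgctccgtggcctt
TAPBP, chr6:33314029-33314328, minus strand: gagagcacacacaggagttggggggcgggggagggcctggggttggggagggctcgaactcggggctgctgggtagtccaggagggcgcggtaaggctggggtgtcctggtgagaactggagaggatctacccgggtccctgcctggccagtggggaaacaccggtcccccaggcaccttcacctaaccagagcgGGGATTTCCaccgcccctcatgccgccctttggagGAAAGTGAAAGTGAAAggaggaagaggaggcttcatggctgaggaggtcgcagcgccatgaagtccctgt

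In the TAP1 window the capitals mark a pair of overlapping ISRE matches on the opposite strand, at -134 to -125 and -128 to -119 from the start. The PSMB9 window, which shares 13 bases with that of TAP1, held none of the searched letters, nor did the windows of HLA-C and PSMB8. HLA-B had an NF-kappaB match at -177 to -169. B2M had overlapping ISRE matches at -144 to -135 and -138 to -129 and an NF-kappaB match at -4 to 5. TAPBP had an NF-kappaB match at -55 to -47 and overlapping ISRE matches at -20 to -11 and -14 to -5, and TAP2 an ISRE match at -58 to -49. No member window held the GAS or CRE letters. Apart from the paired ISRE copies, no matches overlapped. The TAP1 matches lie between the starts of TAP1 and PSMB9 but outside the PSMB9 window. Forms of a motif with other letters or another length were not searched. For example, the stretch gggactttcc in the TAP1 window is not marked. A window without a match can therefore still hold a site of that kind. A match is a description of the letters, and binding was not measured.

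Library totals ranged from 16673228 to 25609062 counts with a median of 19701304. Values below are CPM, a gene's count scaled to a fixed library total, after TMM scaling, which corrects for differences in library composition. They are shares of the RNA in a library, so fewer cells expressing a gene and less RNA per cell cannot be told apart. USP18 itself, the check of the vector, was at 8.77 to 12.3 CPM in the 27 empty-vector libraries and at 947 to 2115 CPM in the 27 USP18 libraries. Its level in USP18 cells was not constant: the group mean was 1307 CPM with vehicle, lowest with 1 µM CP18 (981 CPM) and highest with 5 µM CP14 (2047 CPM). KRT8 and KRT18, keratins of epithelial cells, had medians of 3840 and 3600 CPM, while EPCAM had a median of 3.59 CPM. Of the defining leukocyte markers, CD3E was at 0 in every library, PTPRC did not exceed 0.352 CPM and HLA-DRA, an MHC class II chain, did not exceed 0.0997 CPM.

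Per length of the canonical transcript, B2M was the most abundant member in vehicle-treated empty-vector cells at 206 CPM per kb. TAPBP, HLA-E and HLA-C followed at 28.8, 27.8 and 26.0 CPM per kb, and TAP1 stood at 13.2. PSMB9, PSMB8, HLA-B and TAP2 were lowest, at 6.44, 5.63, 4.86 and 4.74 CPM per kb. HLA-B, HLA-C and HLA-E share reads with near-identical HLA genes and pseudogenes, and TAP2 with an overlapping gene on its own strand. The estimated counts were more than 1e-06 from a whole number in 54 of 54 libraries for HLA-B, 53 for HLA-C, 53 for TAP2 and 16 for HLA-E, which marks reads that RSEM divided between genes, so the levels of these genes are uncertain. The HLA rows also refer to reference alleles. B2M, TAPBP and PSMB8 had whole counts in every library, and TAP1 and PSMB9 in all but 2 and 4.

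**Figure D1:**
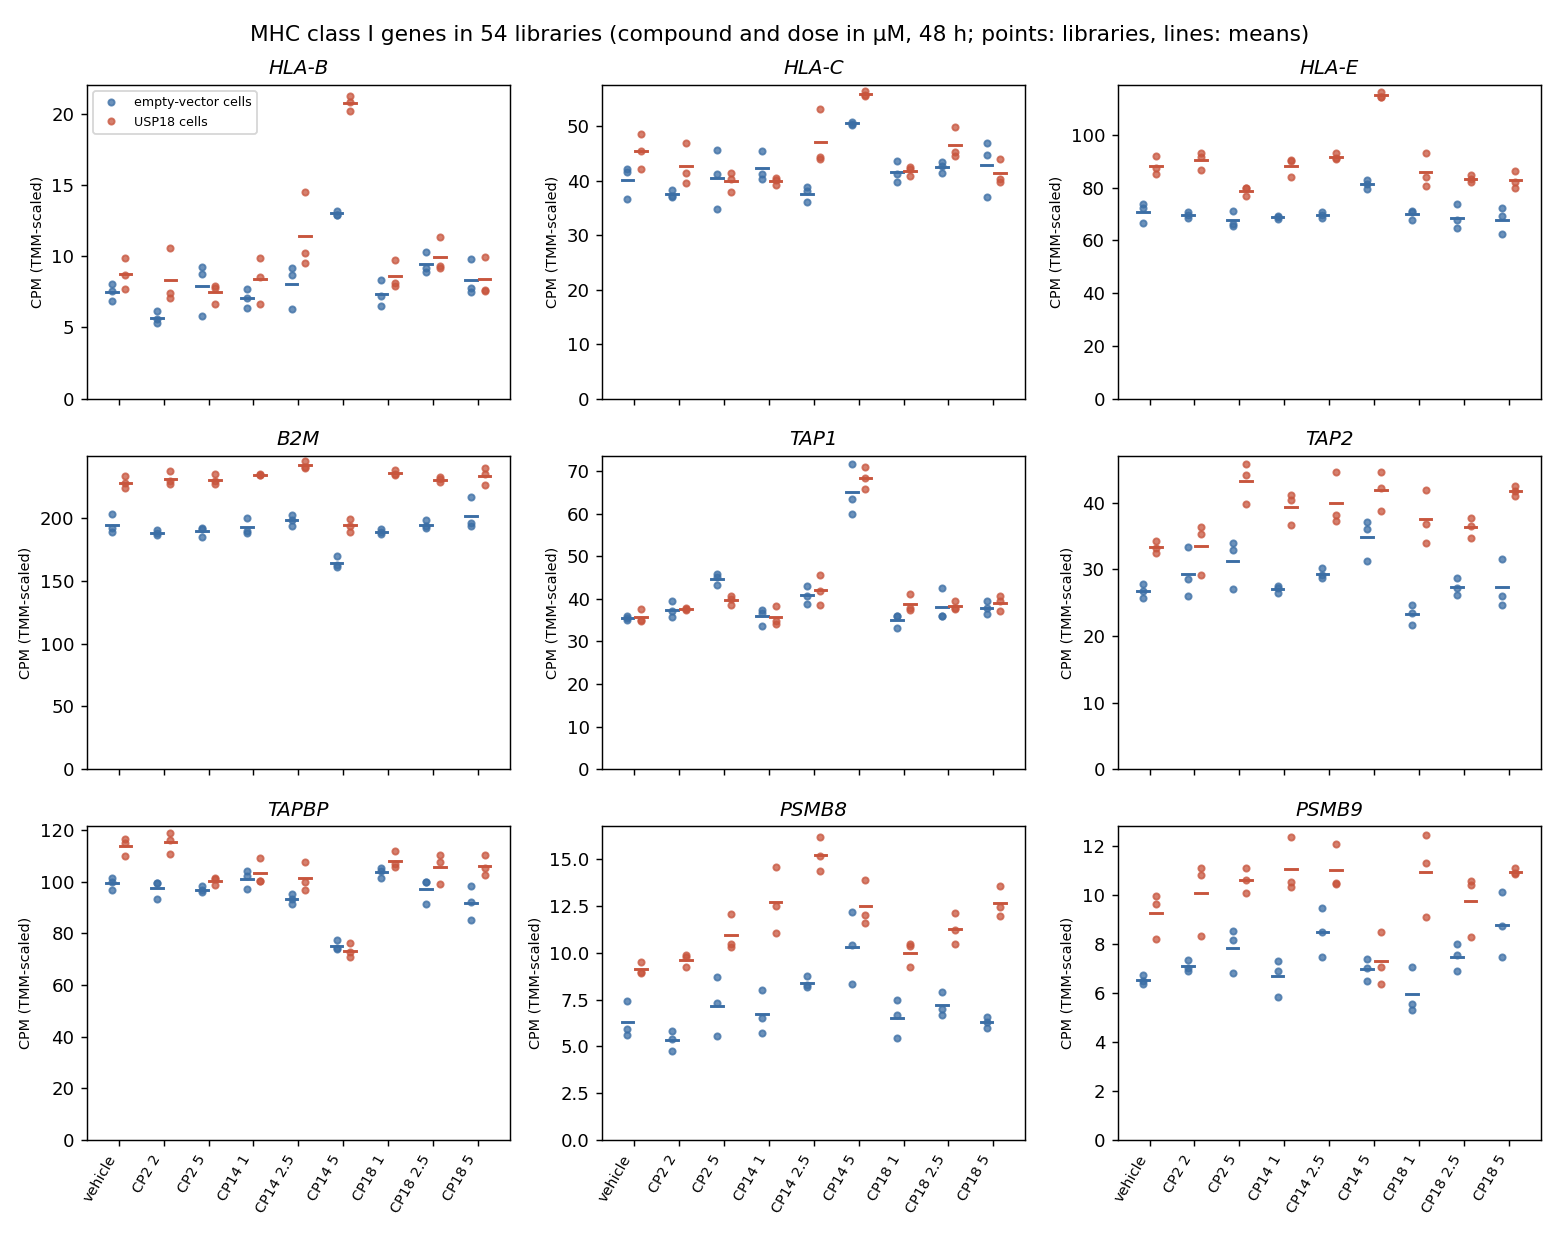
TMM-scaled CPM (vertical axes, from 0) of each of the 9 genes in all 54 libraries by compound and dose in µM (horizontal axis). Points are libraries and short lines group means, blue for empty-vector and red for USP18 cells. HLA-B and TAP1 stand highest with 5 µM CP14 in both cell types, TAPBP lowest, and B2M is higher in USP18 than in empty-vector cells at every condition.

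The first question was whether USP18 cells differed from empty-vector cells before any compound. With vehicle, 7 of the 9 members were statistically significantly higher in USP18 cells and none was lower. The test was edgeR's quasi-likelihood test over all 54 libraries with Benjamini-Hochberg adjustment over all genes, and a gene passed at an adjusted p under 0.05. By that rule 51.2% of all genes tested passed (25.6% higher, 25.6% lower). The median log2 fold change was 0.24 over the members and -0.01 over all genes tested. Summed marker levels differed with the vector as well, for 6 epithelial markers at 13000 to 13200 CPM in empty-vector and 8670 to 8920 CPM in USP18 cells, and their part in the differences was not tested.

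The largest differences were those of the inducible proteasome subunits. PSMB8 was at 5.60, 5.95 and 7.42 CPM in the vehicle-treated empty-vector libraries and at 8.91, 9.51 and 8.99 CPM in the USP18 libraries. PSMB9 was at 6.73, 6.40 and 6.51 CPM against 9.65, 9.95 and 8.23 CPM. For both genes every USP18 library lay above every empty-vector library. The log2 fold change was 0.52 (SE 0.132, edgeR adjusted p = 0.000819) for PSMB8 and 0.50 (SE 0.128, edgeR adjusted p = 0.000868) for PSMB9.

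Among the heavy chains, HLA-E, the ligand of the NKG2A and NKG2C receptors of natural killer cells, was at 73.7, 72.3 and 66.7 CPM in empty-vector and 87.5, 85.0 and 91.9 CPM in USP18 libraries (log2 fold change 0.32, SE 0.0473, edgeR adjusted p = 1.66e-07). B2M, the light chain that every heavy chain needs, was at 192, 189 and 203 CPM against 227, 224 and 233 CPM (log2 fold change 0.23, SE 0.0326, edgeR adjusted p = 5.95e-08). Neither gene's groups overlapped. HLA-C, a classical heavy chain, was at 42.2, 41.5 and 36.6 CPM against 48.6, 45.5 and 42.2 CPM, groups that nearly touched. Its log2 fold change was 0.18 (SE 0.0745, edgeR adjusted p = 0.0357), and the call was lost without empty-vector replicate 3 or without USP18 replicate 1 or 2 (highest adjusted p = 0.252). HLA-B, also classical, had overlapping groups, at 7.53, 8.02 and 6.83 CPM against 8.71, 9.90 and 7.70 CPM, and did not pass (log2 fold change 0.24, SE 0.162, edgeR adjusted p = 0.223).

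Of the peptide transporter's 2 subunits, TAP2 was higher and TAP1 did not pass. TAP2 was at 25.8, 26.7 and 27.8 CPM in empty-vector and 32.5, 34.3 and 33.1 CPM in USP18 libraries (log2 fold change 0.31, SE 0.0891, edgeR adjusted p = 0.00271). TAP1 was at 35.5, 35.1 and 36.1 CPM against 34.8, 35.1 and 37.6 CPM, with overlapping groups and a log2 fold change of 0.01 (95% interval -0.12 to 0.14, edgeR adjusted p = 0.908). Tapasin RNA was higher in USP18 cells, at 110.1, 115 and 116 CPM against 99.97, 101 and 96.6 CPM (log2 fold change 0.20, SE 0.045, edgeR adjusted p = 0.00022).

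Genes that act on the class I genes were not all higher. NLRC5, the transactivator of class I genes, was at 3.97 ± 0.596 CPM in empty-vector and 2.34 ± 0.339 CPM in USP18 cells (SD, n = 3; log2 fold change -0.75, edgeR adjusted p = 0.000629). IRF1, an interferon-induced activator, had overlapping groups and a log2 fold change of -0.21 (edgeR adjusted p = 0.0329). Of 12 regulators tested, out of 13 listed, 4 were higher and 3 lower, with a median log2 fold change of 0.05. Among the lower, 1 passed with an absolute log2 fold change over 1. It fell more than NLRC5 and is not reported here by name. The higher ones ran from RELA (0.12, edgeR adjusted p = 0.0125) to NFKB1 (0.44, edgeR adjusted p = 1.17e-10), a pair of NF-κB subunits named after their values were seen. The shares that passed in this list and the 3 that follow are to be read against the 51.2% of all genes. PSMB10, the third inducible catalytic subunit, went against PSMB8 and PSMB9: it was at 12.9 ± 0.774 CPM in empty-vector and 7.18 ± 1.11 CPM in USP18 cells (SD, n = 3; log2 fold change -0.85, edgeR adjusted p = 3.43e-08). The constitutive subunits PSMB6 and PSMB7 were higher by 0.35 and 0.39 on the log2 scale and PSMB5 did not pass (0.07, edgeR adjusted p = 0.0909). In the list of 8 further proteasome genes 2 were higher and 1 lower. Of 8 trimming and loading genes 3 were higher and 1 lower; TAPBPL, the tapasin relative that edits peptides, was at 1.28 ± 0.366 and 3.76 ± 0.328 CPM (SD, n = 3; log2 fold change 1.52, edgeR adjusted p = 6.57e-09). Of 10 other class I and class I-like genes tested, out of 12 listed, 3 were higher and 2 lower; MR1, which presents vitamin B metabolites, was at 16.3 ± 1.21 and 7.97 ± 0.725 CPM (SD, n = 3; log2 fold change -1.03, edgeR adjusted p = 3.76e-14).

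The cell populations were also compared under treatment, with their own libraries at each of 8 compound doses, and the members differed in how often they passed. Of 72 such tests 47 were higher in USP18 cells and 1 was lower, while of all genes 51.1% passed with 2 µM CP2, 49.7% with 5 µM CP2, 50.9%, 49.9% and 53.6% with 1, 2.5 and 5 µM CP14, and 52.2%, 49.8% and 49.5% with 1, 2.5 and 5 µM CP18. HLA-E and B2M were higher in USP18 cells at all 8 doses, HLA-E by 0.22 to 0.50 and B2M by 0.21 to 0.32 on the log2 scale. PSMB8 and PSMB9 passed at every dose except 5 µM CP14, and TAP2 at every dose except 2 µM CP2, where its log2 fold change was 0.20 (edgeR adjusted p = 0.0555, under 0.05 in 6 of 7 alternative analyses). TAPBP passed at 4 of 8 doses (2 µM CP2, 2.5 µM CP14, and 2.5 and 5 µM CP18, by 0.12 to 0.24) and HLA-C at 2 (2 µM CP2, 0.19, and 2.5 µM CP14, 0.32), though both had passed with vehicle. HLA-B, which had not, passed at 3 (2 µM CP2, 0.56, and 2.5 and 5 µM CP14, 0.50 and 0.67). Of these calls, those lost without a single library were TAPBP with 2.5 µM CP14 (empty-vector replicate 2 or USP18 replicate 3) and 2.5 µM CP18 (empty-vector replicate 2 or USP18 replicate 1 or 2), HLA-C with 2 µM CP2 (empty-vector replicate 2 or 3 or USP18 replicate 3), and HLA-B with 2 µM CP2 (USP18 replicate 3) and 2.5 µM CP14 (empty-vector replicate 2 or USP18 replicate 3). The largest difference was PSMB8 with 5 µM CP18, at 5.97, 6.56 and 6.33 CPM in empty-vector and 12.5, 13.6 and 12.0 CPM in USP18 libraries (log2 fold change 1.01, SE 0.131, edgeR adjusted p = 6.52e-09). TAP1 gave the lower value, -0.17 with 5 µM CP2 (edgeR adjusted p = 0.0195), a call lost without empty-vector replicate 2 or 3 or USP18 replicate 1 (highest adjusted p = 0.082) and without the count filter (adjusted p = 0.0771). It was higher with 1 µM CP18 (0.15, edgeR adjusted p = 0.0468), a call lost without any of the 3 empty-vector libraries or USP18 replicate 1 (highest adjusted p = 0.217), and also with at least 10 counts asked of every library or with DESeq2. The PSMB9 call with 2.5 µM CP14 (0.37, edgeR adjusted p = 0.00912) was lost without empty-vector replicate 3 or USP18 replicate 2, that with 2.5 µM CP18 (0.39, edgeR adjusted p = 0.00922) without empty-vector replicate 1 or USP18 replicate 1 or 3, and that with 5 µM CP18 (0.32, edgeR adjusted p = 0.0273) without replicate 1 or 3 of either population. The TAP2 call with 5 µM CP14 (0.27, edgeR adjusted p = 0.00781) was lost without empty-vector replicate 3 or USP18 replicate 1. With 5 µM CP14, PSMB8 was at 0.28 (edgeR adjusted p = 0.0528) and PSMB9 at 0.07 (edgeR adjusted p = 0.677), and the PSMB8 value was under 0.05 in 4 of 7 alternative analyses.

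**Figure D2:**
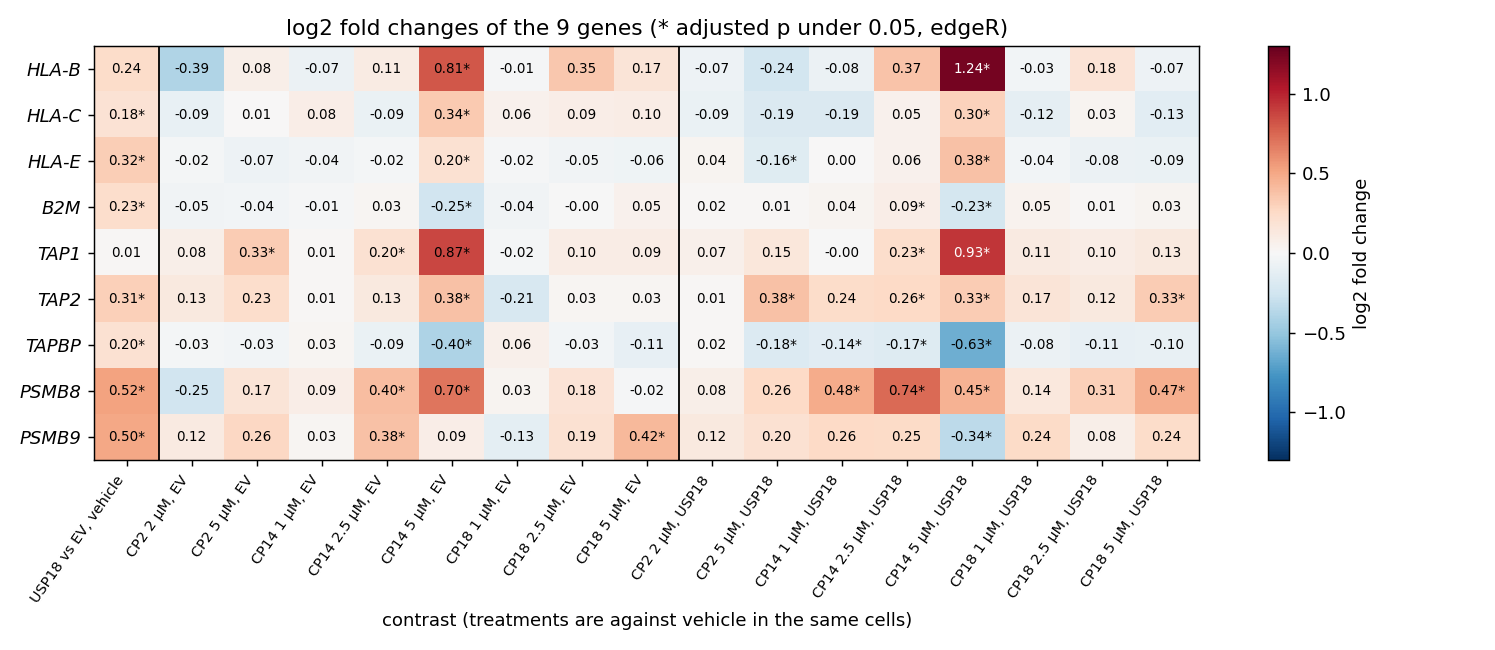
Log2 fold changes (colour and printed value) of the 9 genes in rows, for USP18 against empty-vector (EV) cells with vehicle and for each compound dose against vehicle in the same cells in columns, with asterisks where the edgeR adjusted p was under 0.05. The filled columns are USP18 against empty vector with 7 asterisks and 5 µM CP14 with 8 in empty-vector and 9 in USP18 cells; most other treatment columns hold few.

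The next question was what each compound did against vehicle. CP14 at 5 µM moved most members: in empty-vector cells 6 were higher and 2 lower, and in USP18 cells 6 were higher and 3 lower. The background was wide, since 60.9% of all genes passed in empty-vector and 65.6% in USP18 cells. The members' median log2 fold change was 0.34 and 0.33, against 0.00 and 0.01 over all genes tested. By the stricter rule that also asks for an absolute log2 fold change over 1, 13.9% and 17.7% of all genes were called, and of the members HLA-B in USP18 cells.

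HLA-B rose from 7.53, 8.02 and 6.83 CPM with vehicle to 13.2, 12.9 and 12.9 CPM with 5 µM CP14 in empty-vector cells, and from 8.71, 9.90 and 7.70 CPM to 20.8, 21.2 and 20.2 CPM in USP18 cells. The treated libraries lay above all vehicle libraries in both cell types. The log2 fold change was 0.81 (SE 0.157, edgeR adjusted p = 1.65e-05) and 1.24 (SE 0.148, edgeR adjusted p = 3.28e-10). HLA-C rose to 50.4, 50.8 and 50.3 CPM in empty-vector and 56.5, 55.7 and 55.5 CPM in USP18 cells, by 0.34 (SE 0.0743, edgeR adjusted p = 0.000106) and 0.30 (SE 0.0726, edgeR adjusted p = 0.000325). HLA-E rose to 82.8, 81.3 and 79.7 CPM and to 116, 114 and 114 CPM, by 0.20 (SE 0.0479, edgeR adjusted p = 0.000343) and 0.38 (SE 0.046, edgeR adjusted p = 3.41e-10).

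TAP1 rose most among the members in empty-vector cells, to 63.4, 71.7 and 59.8 CPM, and to 65.8, 70.9 and 68.4 CPM in USP18 cells, where all vehicle libraries of both populations lay between 34.8 and 37.6 CPM. Its log2 fold change was 0.87 (SE 0.0606, edgeR adjusted p = 1.41e-17) and 0.93 (SE 0.0603, edgeR adjusted p = 6.91e-19). TAP2, the partner without which TAP1 does not transport, rose less, to 37.0, 36.0 and 31.3 CPM and to 44.6, 42.2 and 38.8 CPM (0.38, SE 0.0895, edgeR adjusted p = 0.000288; 0.33, SE 0.0855, edgeR adjusted p = 0.000734). PSMB8 rose to 8.34, 10.4 and 12.2 CPM and to 13.9, 11.6 and 12.0 CPM, by 0.70 (SE 0.131, edgeR adjusted p = 9.54e-06) and 0.45 (SE 0.123, edgeR adjusted p = 0.00119).

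The light chain and tapasin went the other way. B2M fell to 162, 161 and 169.7 CPM in empty-vector and 194, 189 and 199 CPM in USP18 cells, changes of -15.6% and -14.9% (log2 fold change -0.25, SE 0.0332, edgeR adjusted p = 1.04e-08; -0.23, SE 0.0327, edgeR adjusted p = 1.94e-08). TAPBP fell to 74.4, 73.8 and 77.6 CPM and to 71.0, 76.3 and 72.6 CPM, changes of -24.2% and -35.6% (log2 fold change -0.40, SE 0.0467, edgeR adjusted p = 2.46e-10; -0.63, SE 0.0462, edgeR adjusted p = 5.17e-17). Vehicle and treated groups did not overlap for either gene. Per length, B2M was still the highest member with 5 µM CP14, at 174 CPM per kb in empty-vector and 206 CPM per kb in USP18 cells. TAPBP went from 28.8 to 21.8 CPM per kb in empty-vector and from 33.0 to 21.2 CPM per kb in USP18 cells, which placed it below HLA-C, HLA-E and TAP1 in both.

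PSMB9 did not follow its divergent neighbour TAP1 upward. In empty-vector cells it was at 7.03, 6.50 and 7.39 CPM with 5 µM CP14, overlapping the vehicle libraries (log2 fold change 0.09, 95% interval -0.18 to 0.36, edgeR adjusted p = 0.586). In USP18 cells it was at 6.39, 8.51 and 7.06 CPM, a log2 fold change of -0.34 (SE 0.127, edgeR adjusted p = 0.0165). That fall is less firm than the other changes with 5 µM CP14: the groups overlapped, and the call was lost without vehicle replicate 1 or 2 or CP14 replicate 1 or 3 (log2 fold change -0.46 to -0.25, highest adjusted p = 0.115). None of the other members' calls with 5 µM CP14 against vehicle was lost when any 1 library was left out.

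**Figure D3:**
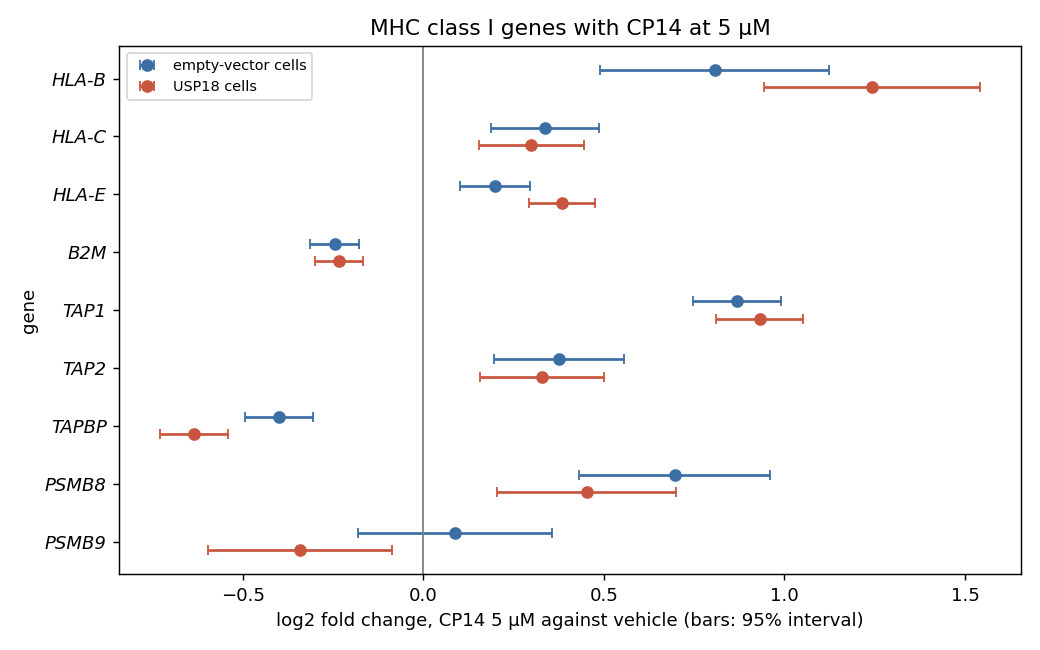
Log2 fold change with 5 µM CP14 against vehicle (horizontal axis, bars show the 95% interval) for the 9 genes (vertical axis) in empty-vector (blue) and USP18 cells (red). HLA-B, TAP1 and PSMB8 lie farthest to the right in empty-vector cells, and B2M and TAPBP lie left of 0 in both.

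**Figure D4:**
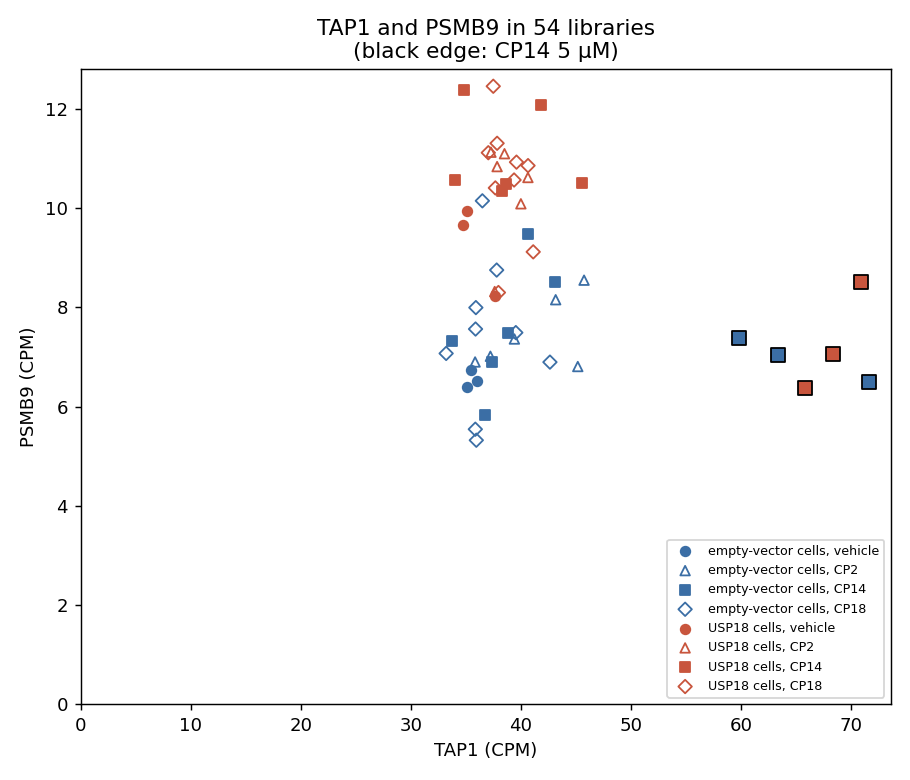
PSMB9 against TAP1, both in TMM-scaled CPM, in each of the 54 libraries, by cell type (colour) and compound (symbol), with black edges for 5 µM CP14. The 6 libraries with 5 µM CP14 lie at 59.8 to 71.7 CPM of TAP1, right of all others, and at 6.39 to 8.51 CPM of PSMB9.

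The lower doses of CP14 moved fewer members. At 2.5 µM, 3 members were higher in empty-vector cells, where 13.2% of all genes passed, and in USP18 cells 4 were higher and 1 lower, where 29.7% passed. TAP1 was at 43.1, 40.6 and 38.9 CPM in empty-vector and 45.6, 41.8 and 38.6 CPM in USP18 cells, by 0.20 (edgeR adjusted p = 0.0262) and 0.23 (edgeR adjusted p = 0.0035) above vehicle. These groups cleared the vehicle libraries by little, and the calls were lost on leaving out vehicle or CP14 replicate 1 or 2 in empty-vector cells and CP14 replicate 1 in USP18 cells (highest adjusted p = 0.146 and 0.0679). PSMB8 was at 16.2, 14.4 and 15.2 CPM in USP18 cells, its highest group of the 18, against 8.91, 9.51 and 8.99 CPM with vehicle (0.74, SE 0.121, edgeR adjusted p = 3.03e-06). It was already higher there at 1 µM, at 14.6, 12.5 and 11.0 CPM (0.48, SE 0.123, edgeR adjusted p = 0.00675), a call lost without CP14 replicate 1 (adjusted p = 0.0878). In empty-vector cells PSMB8 and PSMB9 were higher at 2.5 µM by 0.40 and 0.38 (edgeR adjusted p = 0.034 and 0.0406), and the calls were lost on leaving out any of the 6 libraries compared except vehicle replicate 3 for PSMB8 and CP14 replicate 3 for PSMB9 (highest adjusted p = 0.186 and 0.213). TAP2 in USP18 cells was higher by 0.26 at 2.5 µM (edgeR adjusted p = 0.0166; lost without vehicle replicate 1 or CP14 replicate 3, highest adjusted p = 0.149). TAPBP was lower there, with log2 fold changes of -0.17 at 2.5 µM (edgeR adjusted p = 0.00304) and -0.14 at 1 µM (edgeR adjusted p = 0.0326; lost without vehicle replicate 2 or 3 or CP14 replicate 1 or 2, highest adjusted p = 0.155). B2M was higher by 0.09 at 2.5 µM (edgeR adjusted p = 0.0407), which did not pass with RLE scaling, without the count filter, with DESeq2, or without any of the 6 libraries but vehicle replicate 3 (adjusted p up to 0.262). At 1 µM, 10.6% of all genes passed in USP18 cells. In empty-vector cells, where 0.202% passed, no member did by edgeR or DESeq2, and 0 had an unadjusted p under 0.05.

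Between 2.5 and 5 µM the step was steep. TAP1 in empty-vector cells was at 40.9 ± 2.11 CPM with 2.5 µM and 64.9 ± 6.09 CPM with 5 µM, and in USP18 cells at 42.0 ± 3.48 and 68.4 ± 2.58 CPM (SD, n = 3). On the log2 scale the step was 0.67 (edgeR adjusted p = 8.54e-14) and 0.70 (edgeR adjusted p = 1.29e-14). In empty-vector cells 6 members were higher and 2 lower at 5 than at 2.5 µM, where 57.4% of all genes passed, and in USP18 cells 4 were higher and 4 lower, where 59.9% passed. B2M turned from its highest group of the 18 at 2.5 µM in USP18 cells (245, 240.3 and 239.9 CPM) to 194, 189 and 199 CPM at 5 µM (log2 fold change -0.32, edgeR adjusted p = 5.73e-12). PSMB9 in USP18 cells turned from 10.5, 12.1 and 10.5 CPM to 6.39, 8.51 and 7.06 CPM (-0.59, SE 0.124, edgeR adjusted p = 5.62e-05), with groups that did not overlap. PSMB8 in USP18 cells stepped down as well (-0.29, SE 0.117, edgeR adjusted p = 0.0321), but this did not pass with library totals alone (adjusted p = 0.0698) or without CP14 2.5 µM replicate 1 or 3 or CP14 5 µM replicate 2 or 3 (highest adjusted p = 0.13).

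CP2 and CP18 moved few members. With 5 µM CP2, TAP1 was higher in empty-vector cells, at 43.2, 45.7 and 45.2 CPM against 35.5, 35.1 and 36.1 CPM (0.33, SE 0.0624, edgeR adjusted p = 0.000179), where 11.8% of all genes passed. In USP18 cells, where 18.8% passed, TAP2 was higher (44.2, 39.8 and 45.8 CPM; 0.38, SE 0.0848, edgeR adjusted p = 0.00086), its highest group of the 18. TAPBP was lower (101, 101.5 and 98.6 CPM; -0.18, SE 0.0449, edgeR adjusted p = 0.00258), and so was HLA-E (-0.16, edgeR adjusted p = 0.011; lost without vehicle or CP2 replicate 3, highest adjusted p = 0.0881). At 2 µM CP2 no member passed by edgeR or DESeq2, and only HLA-B in empty-vector cells had an unadjusted p under 0.05 (1 of 9, and 0 of 9 in USP18 cells). Of all genes 0.558% passed in empty-vector and 0.434% in USP18 cells. With 5 µM CP18, PSMB9 was higher in empty-vector cells (8.75, 10.2 and 7.49 CPM; 0.42, SE 0.13, edgeR adjusted p = 0.0229), where 13% of all genes passed, but not without CP18 replicate 2 or any vehicle library (highest adjusted p = 0.202). In USP18 cells, where 15.3% passed, TAP2 (41.0, 41.7 and 42.5 CPM; 0.33, SE 0.0856, edgeR adjusted p = 0.00565) and PSMB8 (0.47, SE 0.123, edgeR adjusted p = 0.00536) were higher. No member passed by edgeR or DESeq2 with 1 or 2.5 µM CP18 in either cell type. An unadjusted p under 0.05 was seen for TAP2 at 1 µM and HLA-B at 2.5 µM in empty-vector cells (1 of 9 each), and in USP18 cells for PSMB9 at 1 µM (1 of 9) and for TAPBP and PSMB8 at 2.5 µM (2 of 9). Of all genes 0% and 11.8% passed at 1 µM in empty-vector and USP18 cells, and 3.15% and 9.84% at 2.5 µM.

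The compounds were compared at matched doses in 10 contrasts, with p-values adjusted within each over all genes. Between CP14 and CP18 at 1 µM no member passed by edgeR or DESeq2, where 0.0178% of all genes passed in empty-vector and 0.0772% in USP18 cells. TAP2 in empty-vector cells (log2 difference 0.22, 95% interval 0.03 to 0.41) and PSMB8 in USP18 cells (0.35, 95% interval 0.10 to 0.59) had an unadjusted p under 0.05, 1 of 9 members in each. At 2.5 µM no member passed by either tool in empty-vector cells (2.33% of all genes; 1 of 9, HLA-C, at an unadjusted p under 0.05), and in USP18 cells (26.6%) PSMB8 was higher with CP14 by 0.43 (SE 0.118, edgeR adjusted p = 0.00445) and HLA-E by 0.14 (edgeR adjusted p = 0.0236; lost without the count filter, where adjusted p was 0.0602, or without CP14 replicate 3 or CP18 replicate 2 or 3). At 5 µM all 9 members differed in empty-vector cells, where 58.9% of all genes passed, and 7 of 9 in USP18 cells, where 65.5% passed. TAP1 was higher with CP14 than with CP18 by 0.78 (SE 0.061) and 0.81 (SE 0.0599), HLA-B by 0.64 (SE 0.157) and 1.31 (SE 0.15). Lower with CP14 were B2M at -0.30 (SE 0.0334) and -0.27 (SE 0.0327), TAPBP at -0.29 (SE 0.0474) and -0.53 (SE 0.0465), and PSMB9 at -0.33 (SE 0.131) and -0.58 (SE 0.125). In empty-vector cells the PSMB9 difference (edgeR adjusted p = 0.0261) did not pass with library totals alone (adjusted p = 0.0513) or without replicate 2 of either compound (highest adjusted p = 0.197), nor the HLA-C difference (0.24, edgeR adjusted p = 0.00571) without CP18 replicate 1 (adjusted p = 0.115). TAP2 and PSMB8 in USP18 cells did not pass, with log2 differences of 0.00 (95% interval -0.16 to 0.17) and -0.02 (95% interval -0.26 to 0.22). CP14 against CP2 at 5 µM gave 5 higher and 2 lower in empty-vector cells (58.7% of all genes) and 4 higher and 3 lower in USP18 cells (66.1%), among them HLA-B in USP18 cells, 1.48 higher with CP14 (SE 0.151). Between CP18 and CP2 at 5 µM no member passed by edgeR or DESeq2 in either cell type, where 0.0653% and 0.0832% of all genes passed. B2M, TAP1 and TAP2 in empty-vector cells had an unadjusted p under 0.05 (3 of 9, and 0 of 9 in USP18 cells). For TAP1 the log2 difference of CP18 from CP2 was -0.23 in empty-vector cells (95% interval -0.36 to -0.11, edgeR adjusted p = 0.146, or 0.0478 without the count filter) and -0.02 in USP18 cells (95% interval -0.15 to 0.10).

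Whether the vector altered the response was tested as an interaction, the treatment's log2 fold change in USP18 cells minus that in empty-vector cells. Of 72 tests, 2 passed, both with 5 µM CP14, where 26.4% of all genes passed. For the other doses no member passed. The interaction of TAP2 with 1 µM CP18 (0.38, edgeR adjusted p = 0.0801) passed with DESeq2, without the count filter, with only the libraries of the groups compared, and without USP18 replicate 2 of that dose. Of all genes 0.00594% passed with 2 µM CP2, 0.843% with 5 µM CP2, 1.86% and 7.3% with 1 and 2.5 µM CP14, and 4.35%, 0.0297% and 0.719% with 1, 2.5 and 5 µM CP18. At those doses an unadjusted p under 0.05 was seen for 0 and 2 members with CP2, 3 and 0 with CP14 and 3, 0 and 3 with CP18, in order of dose. TAPBP fell more in USP18 cells (interaction -0.24, SE 0.0657, edgeR adjusted p = 0.00499), where it started at 113.8 ± 3.33 CPM against 99.29 ± 2.39 CPM with vehicle and the treated groups overlapped at 71.0 to 76.3 and 73.8 to 77.6 CPM (SD, n = 3). HLA-E rose more in USP18 cells (0.19, SE 0.0664, edgeR adjusted p = 0.0318). That call was lost without the count filter (adjusted p = 0.0874) or on leaving out any of 7 libraries: vehicle empty-vector replicates 1 and 2, vehicle USP18 replicates 1 and 2, CP14 empty-vector replicates 2 and 3 and CP14 USP18 replicate 1 (highest adjusted p = 0.108). With 5 µM CP14 the interaction of HLA-B was 0.44 (95% interval -0.0005 to 0.87, edgeR adjusted p = 0.141), and did not pass except when only the libraries of the groups compared were fitted (adjusted p = 0.018). PSMB9 did not pass either, at -0.43 (95% interval -0.80 to -0.06, edgeR adjusted p = 0.0799), except without vehicle USP18 replicate 3 or CP14 USP18 replicate 2. For TAP1 the interaction was 0.06 (95% interval -0.11 to 0.23). USP18 RNA itself was higher with 5 µM CP14 in the USP18 cells, as given above, and its part in these differences was not tested.

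Around the members, the pathway lists with 5 µM CP14 are given against a background of 60.9% of all genes passing in empty-vector and 65.6% in USP18 cells. Of 8 further proteasome genes 2 were higher and 2 lower in empty-vector cells, and 1 higher and 6 lower in USP18 cells, with medians of -0.08 and -0.23. PSMB5, which PSMB8 replaces, fell in both (log2 fold change -0.18 and -0.32, edgeR adjusted p = 7.07e-06 and 5.78e-12). PSMB6, which PSMB9 replaces, rose by 0.11 in empty-vector cells (edgeR adjusted p = 0.0168) and fell in USP18 cells (-0.34, edgeR adjusted p = 5.06e-10), an interaction of -0.45 (edgeR adjusted p = 2.74e-08). PSMB7, which PSMB10 replaces, rose by 0.46 and 0.39 (edgeR adjusted p = 6.25e-15 and 4.46e-13), while PSMB10 did not pass in either (-0.14 and 0.07).

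Of 8 trimming and loading genes 3 were higher and 3 lower in empty-vector cells, and 4 lower and none higher in USP18 cells, against 60.9% and 65.6% of all genes. By the interaction test 7 of the 8 had a lower log2 fold change in USP18 cells and none a higher one. The median interaction was -0.46, and 26.4% of all genes passed that test. CALR, the chaperone calreticulin of the loading complex that also holds tapasin, fell in both: 662 ± 4.77 CPM with vehicle became 310.0 ± 7.74 CPM in empty-vector cells, and 736 ± 4.78 CPM became 249 ± 11 CPM in USP18 cells (SD, n = 3). Its log2 fold change was -1.10 (edgeR adjusted p = 8.52e-31) and -1.57 (edgeR adjusted p = 9.47e-37). TAPBPL rose from 1.28 ± 0.366 to 2.72 ± 0.188 CPM in empty-vector cells (SD, n = 3; 1.05, edgeR adjusted p = 2.14e-05) and did not pass in USP18 cells (0.04, edgeR adjusted p = 0.838), where it was already at 3.76 CPM with vehicle.

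Of 12 regulators tested, 5 were higher and 2 lower in empty-vector and 3 higher and 2 lower in USP18 cells, against 60.9% and 65.6% of all genes. IRF1 rose in both, 13.6 ± 1.08 CPM with vehicle against 18.8 ± 2.01 CPM with CP14 in empty-vector cells and 11.8 ± 1.09 against 22.3 ± 1.07 CPM in USP18 cells (SD, n = 3), by 0.47 (edgeR adjusted p = 1.55e-06) and 0.92 (edgeR adjusted p = 2.33e-14), with an interaction of 0.45 (edgeR adjusted p = 0.00182). NLRC5 did not pass in either (-0.04 and -0.18, edgeR adjusted p = 0.861 and 0.442). Among 10 other class I and class I-like genes tested, 3 were higher and 3 lower in empty-vector and 4 higher and 3 lower in USP18 cells, with the same background. ULBP1 and ULBP2, class I-like ligands of the activating receptor NKG2D, were among those that rose. ULBP1 went from 5.04 ± 0.926 to 25.8 ± 1.8 CPM and from 6.08 ± 0.416 to 25.1 ± 3.2 CPM (SD, n = 3; 2.36 and 2.04, edgeR adjusted p = 2.2e-21 and 1.61e-19). ULBP2 rose by 0.45 in empty-vector and 1.27 in USP18 cells (edgeR adjusted p = 0.0147 and 5e-10). MR1 did not pass in empty-vector cells (-0.11) and rose by 0.44 in USP18 cells (edgeR adjusted p = 5.34e-05).

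**Figure D5:**
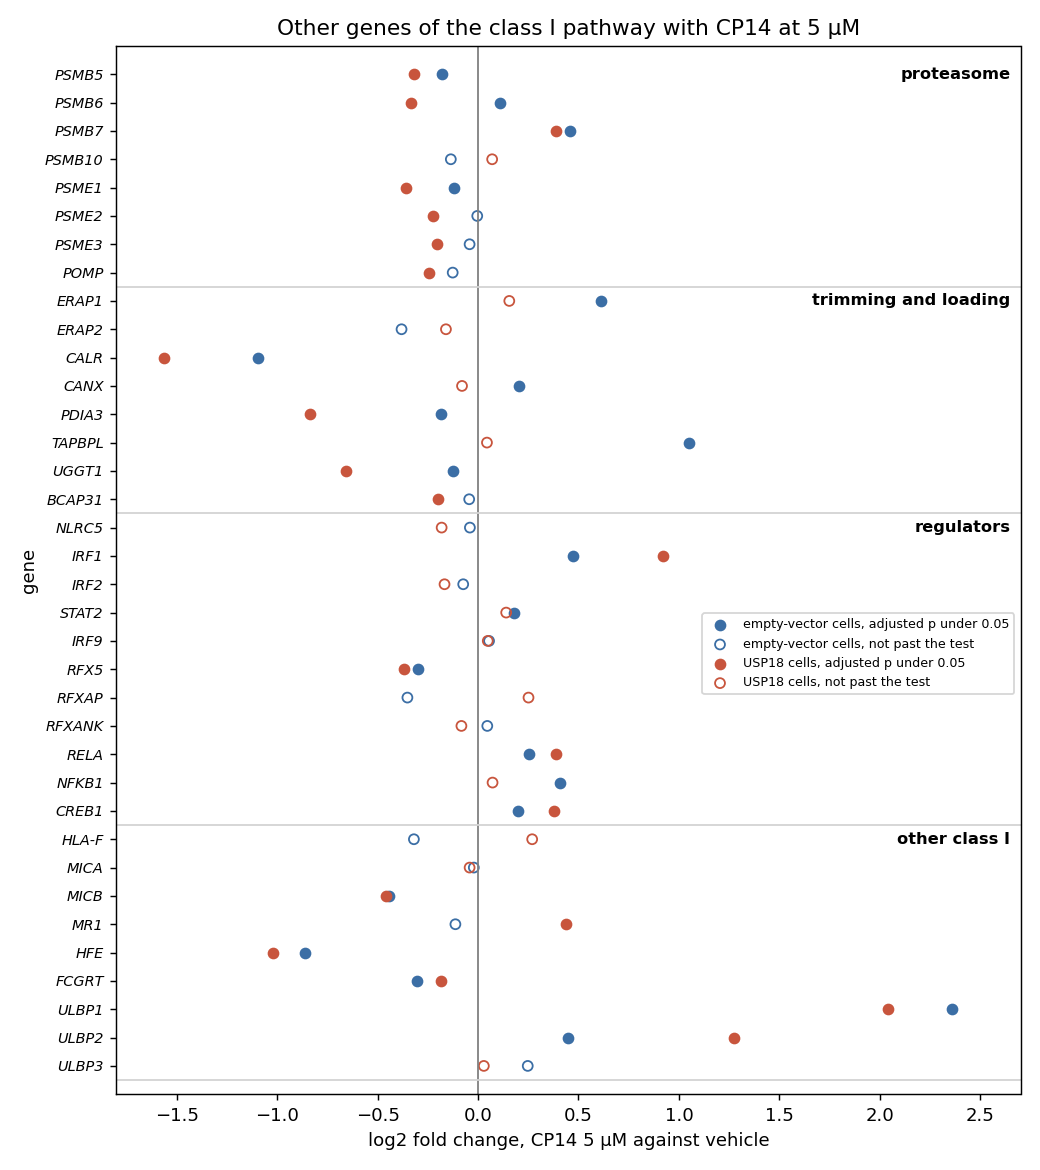
Log2 fold change with 5 µM CP14 against vehicle (horizontal axis) of tested genes of 4 lists outside the 9 members (vertical axis, lists separated by lines), in empty-vector (blue) and USP18 cells (red). Filled points had an edgeR adjusted p under 0.05. ULBP1 lies farthest right, at 2.36 and 2.04, and CALR farthest left, at -1.10 and -1.57.

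The summed level of 6 leukocyte markers moved with the same treatment, at 3.06 to 3.59 CPM with vehicle and 0.496 to 1.25 CPM with 5 µM CP14 in empty-vector cells, and at 2.49 to 2.82 and 0.0495 to 0.307 CPM in USP18 cells. Most of it was CD14, with a median of 2.39 CPM. The summed level of 6 epithelial markers, nearly all of it KRT8, KRT18 and KRT7, was lower too, from 13000 to 13200 CPM down to 7460 to 8030 CPM in empty-vector and from 8670 to 8920 CPM down to 6360 to 6580 CPM in USP18 cells. Fibroblast markers summed to 11.8 to 14.5, 8 to 8.27, 6.62 to 7.1 and 4.32 to 4.6 CPM in those 4 groups in the order vehicle and CP14 5 µM, with USP18 cells given after empty-vector cells at each, and endothelial markers did not exceed 0.547 CPM in any of them. The epithelial, fibroblast and leukocyte sums thus also differed between empty-vector and USP18 cells with vehicle. Defining leukocyte genes other than CD14 were at or near 0, and the part of these shifts in the results for compound and for vector was not tested.

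Set in order over the 18 groups, the members fell into different patterns. HLA-B was highest with 5 µM CP14 in USP18 cells (20.74 CPM) and next in empty-vector cells (13 CPM), whose libraries lay within the range of 2.5 µM CP14 in USP18 cells (9.55 to 14.5 CPM); its lowest group was 2 µM CP2 in empty-vector cells (5.68 CPM). TAP1 had the same leading groups (68.4 and 64.9 CPM), whose libraries overlapped (log2 difference 0.07, edgeR adjusted p = 0.295), then 5 µM CP2 in empty-vector cells (44.7 CPM). For HLA-E the USP18 groups took 8 of the 9 highest places, with 115 CPM at the top and 67.6 CPM at the bottom. B2M was lowest with 5 µM CP14 in empty-vector cells (164 CPM), and that dose in USP18 cells (194 CPM) lay among the empty-vector groups. TAPBP had 5 µM CP14 in USP18 and empty-vector cells at the bottom (73.3 and 75.3 CPM), with overlapping libraries. PSMB9 ran from 5.98 to 11.1 CPM, and 5 µM CP14 (7.32 CPM) was the lowest of the USP18 groups. Across the 18 group means of log2 CPM, which share the vector, the dose and the same libraries for each pair of genes, Pearson's r was 0.92 between HLA-B and HLA-C and -0.87 between TAP1 and TAPBP. Within the 9 empty-vector and the 9 USP18 means it was 0.852 and 0.947 for the former pair and -0.929 and -0.953 for the latter. HLA-B and HLA-C both hold reads that RSEM divided between genes, as given above, and the part of this in their r was not tested. Other pairs differed between the pooled and the separate values. For B2M and PSMB9 r was 0.893 over all 18 means, 0.366 in empty-vector and 0.946 in USP18 cells. For TAP2 and PSMB8 it was 0.89, 0.61 and 0.677, and for TAP1 and PSMB9 -0.187, 0.156 and -0.802, in the same order. In both cell types 5 µM CP14 was the highest or lowest group for HLA-B, HLA-C, TAP1, TAPBP and B2M. In USP18 cells it was so for PSMB9 as well. There TAP1 was at 68.4 CPM and at most 42.0 CPM in the other groups, and TAPBP at 73.3 and at least 100.4 CPM. The values of r can rest largely on that dose, and r without it was not computed.

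Other genes ran closely beside them over the same 18 group means. The genes most like the mean of the 9 members were GATA3 (Pearson's r = 0.981), ARMCX6 (0.978), COL6A2 (0.978), RPL7A (0.978) and SSPN (0.977). Those most like TAP1 were FOSL1 (0.977), LINC00973 (0.976), PABPC1L (0.974), IFRD1 (0.973) and LRIF1 (0.973). FOSL1, a subunit of AP-1, ranged from 13.6 to 166 CPM over the groups. These are descriptions over groups that share conditions, picked from all genes tested. For TAP1 the groups with 5 µM CP14 lay far above the others, and r without them was not computed.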

How the data were processed

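RNA of A549 cells was sequenced in 54 libraries, 18 groups of 3. The deposited table holds RSEM expected counts, which the authors estimated per gene (submitters' processing notes: cutadapt 1.18, STAR 2.7.0f, RSEM 1.3.1, hg38); 83.3% of its values above 0 were within 1e-06 of a whole number. The labels describe poly(A) libraries and the study's methods ribosomal RNA depletion, so which was used is uncertain. Estimated counts were rounded and genes kept with edgeR's filter (minimum count 10, minimum total 15), leaving 16836. Library totals were 16673228 to 25609062; of the members HLA-B, PSMB8 and PSMB9 had the lowest counts (medians of 164, 182 and 169). Levels are TMM-scaled CPM. An edgeR 4.0.16 quasi-likelihood model (R 4.3.3) with a mean for each of 18 groups gave 53 contrasts, with Benjamini-Hochberg adjustment over all genes in each and a threshold of 0.05. The code was tested on simulated data.

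Members and lists were chosen with earlier results of these data known. All 9 members were named, with USP18, PSMB5, PSMB6, PSMB7, PSMB10, NLRC5 and IRF1. So were the 5 genes most correlated with the members' mean and with TAP1. From each list except the regulators, up to 3 called genes (absolute log2 fold change over 1) with the largest change were named. Contrasts of vector or treatment against vehicle counted for this. The regulator called with vehicle is not reported here by name, and RELA and NFKB1 were named after their values were seen. Alternatives were RLE size factors, library totals alone, 2 other count filters, a replicate block, only the groups compared, DESeq2 1.42.0 and leaving out each library. The fits that left out a library kept the tested genes and the trend of the spread estimated from all libraries. The library left out thus still shaped that trend. Some genes counted in the lists are not reported here by name. Promoter sequences came from RefSeq.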

Additional observations from a re-analysis of the deposited data

Results flagged for a closer look

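The response to 5 µM CP14 differed between USP18 and empty-vector cells for 2 of 9 members by the edgeR test of the difference itself. Of all genes 26.4% passed it, so the number of members that did is no result about them as a group. For TAPBP the log2 fold change in USP18 cells minus that in empty-vector cells was -0.24 (edgeR adjusted p = 0.00499, n = 3 per group), and all 6 treated libraries lay below the vehicle libraries of their own cells. It passed in each of the 7 alternative analyses and without any 1 library (highest adjusted p = 0.0199). For HLA-E the difference was 0.19 (edgeR adjusted p = 0.0318, n = 3 per group), with all 6 treated libraries above the vehicle libraries of their own cells. It did not pass without the count filter (adjusted p = 0.0874). The HLA-E call was also lost on leaving out any single one of the libraries named with the interactions above.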

How the results depend on the processing

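The 9 members gave 477 tests over 53 contrasts, and none changed direction after passing under any alternative. Against the reported calls, 474 held their side of the threshold with RLE size factors, 470 with library totals alone, 460 with no filter beyond a count above 0, 471 with at least 10 counts in every library and 465 with only the libraries of the groups compared. With DESeq2 448 of 456 did. DESeq2 gave no adjusted p for the rest of the 477 tests. Where no member is said to pass by DESeq2, a member without an adjusted p counts as not passing. Summed over each of the 6 families of comparisons, the number of calls moved by over 1.5 times for interactions alone. Counts within a single comparison moved further: the 3 calls with 2.5 µM CP14 in empty-vector cells went to 0 on leaving out vehicle replicate 1 or 2 or CP14 replicate 1 or 2. Interactions went from 2 to 4 with only the libraries of the groups compared, and from 2 to 1 when a single library out of 7 was left out, each of which ended the HLA-E call: vehicle empty-vector replicate 1 or 2, vehicle USP18 replicate 1 or 2, 5 µM CP14 empty-vector replicate 2 or 3 and 5 µM CP14 USP18 replicate 1. The cause was not tested. Leaving out each of the 54 libraries gave 6 to 7 calls for USP18 against empty vector with vehicle, 30 to 35 for treatment against vehicle, 1 to 3 for interactions, 46 to 49 for USP18 against empty vector under treatment, 31 to 33 for compound pairs and 20 to 24 for dose steps. Of 3294 such results 101 were lost and 20 gained. HLA-B, PSMB8 and PSMB9 had the lowest counts of the members (medians of 164, 182 and 169), and whether deeper sequencing would change their calls was not tested.

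Replicate numbers did not pair the libraries: deviations from group means had a median correlation of -0.001 over 459 same-numbered pairs (range -0.137 to 0.135) and 0 over 918 others, and 18 of 54 libraries were closest to their own number. With the replicate block 476 of 477 calls held and 1 was gained, with 7, 34, 2, 48, 32 and 24 calls in the 6 families in the order above.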
